A study of Mus musculus with 7 samples.

Results

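The PYHIN genes, also called the interferon-inducible p200 family, were followed in tumour cells from irradiated mice that did or did not also receive an interleukin 12 vector. The 8 genes Ifi203, Ifi204, Ifi205, Ifi207, Ifi211, Ifi213, Mndal and Aim2 were taken by symbol out of the 56953 genes counted in each library. With AAV-iIL12, Ifi203, Mndal, Ifi211, Ifi204 and Ifi207 were 23.7-fold to 33.4-fold higher than with the control vector. Ifi205 did not pass the test. Aim2 and Ifi213 had at most 7 counts in any library, too few for the main test.

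RNA was measured in 7 libraries of cells from tumours of B16, a mouse melanoma line, collected 5 days after treatment. All mice had radiotherapy at 8 Gy. In 3 libraries it was combined with the vector AAV-iIL12 and in 4 with the control vector AAV-iLuc, AAV being adeno-associated virus. Live cells without CD45, the common leukocyte marker, and without CD31, an endothelial marker, were sorted, so the libraries hold tumour cells with any other cells that lack both markers. The titles of the AAV-iIL12 libraries carry the letters WT and those of the AAV-iLuc libraries do not. Mouse strain, genotype and age are not given in the sources used here, nor is the promoter that drives either vector. No group without radiotherapy or without a vector was among these libraries, so both groups share the irradiation and an AAV vector. B16 is a single cell line, and the comparison is one of animals carrying that line. The series' design text counts the libraries as mice, and p-values measure the spread between them.

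PYHIN proteins usually pair a pyrin domain, which binds other pyrin domains, with 1 or more HIN domains, which bind double-stranded DNA. Aim2 is the cytosolic DNA sensor that assembles an inflammasome with the adaptor Pycard. Ifi204 is a mouse relative of human IFI16, is found in nucleus and cytoplasm and has been linked to STING-dependent interferon induction. Several other members are nuclear proteins studied as interferon-induced regulators of transcription and cell growth. In the mouse the genes lie side by side on chromosome 1 and differ in number between inbred strains.

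Promoter windows are shown first because 4 of the 5 members that rose have the same kind of motif at nearly the same place. The windows run from 250 bases before to 50 bases after the annotated start in RefSeq on GRCm38.p6. They were searched on both strands for the core of the interferon-stimulated response element (ISRE), read here as GAAA, any 2 bases and GAAA, and for TTCNNNGAA, the gamma-activated site (GAS). No PYHIN window held both motifs, so their matches do not overlap. A window was found for 7 of the 8 members, Ifi204 being the exception. The ISRE core was present for 6 of those 7, against 3.44% of 32851 windows and 3.99% of 27025 genes. TTCNNNGAA was present for 0 of the 7, against 8.3% of windows and 9.55% of genes. Aim2 held neither motif in its window. A match describes letters, not binding, and a missing match says only that the letters are not in that window.

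Whole windows follow for 4 members, the one with the most matches and the next by expression level. They are written 5′ to 3′ along the gene, and capitals mark the ISRE core on either strand.
Ifi203, chr1:173942443-173942742, minus strand: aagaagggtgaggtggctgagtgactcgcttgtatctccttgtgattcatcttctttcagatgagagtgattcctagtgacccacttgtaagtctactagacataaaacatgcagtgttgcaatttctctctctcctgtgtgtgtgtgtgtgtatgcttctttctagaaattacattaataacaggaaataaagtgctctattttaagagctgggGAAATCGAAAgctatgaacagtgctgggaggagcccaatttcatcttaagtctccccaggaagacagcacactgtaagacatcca
Mndal, chr1:173880138-173880437, minus strand: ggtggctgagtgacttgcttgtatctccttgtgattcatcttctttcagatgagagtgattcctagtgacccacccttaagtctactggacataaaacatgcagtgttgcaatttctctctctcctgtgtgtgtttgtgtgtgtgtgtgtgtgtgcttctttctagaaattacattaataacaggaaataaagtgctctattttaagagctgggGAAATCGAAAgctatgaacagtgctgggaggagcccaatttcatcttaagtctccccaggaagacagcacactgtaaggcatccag
Ifi211, chr1:173912997-173913296, minus strand: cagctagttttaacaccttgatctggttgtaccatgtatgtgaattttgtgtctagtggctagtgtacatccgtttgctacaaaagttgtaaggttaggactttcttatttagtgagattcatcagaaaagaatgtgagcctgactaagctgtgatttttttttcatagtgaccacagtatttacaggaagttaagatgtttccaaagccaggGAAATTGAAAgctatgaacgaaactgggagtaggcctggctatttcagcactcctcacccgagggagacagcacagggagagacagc
Ifi205, chr1:174031706-174032005, minus strand: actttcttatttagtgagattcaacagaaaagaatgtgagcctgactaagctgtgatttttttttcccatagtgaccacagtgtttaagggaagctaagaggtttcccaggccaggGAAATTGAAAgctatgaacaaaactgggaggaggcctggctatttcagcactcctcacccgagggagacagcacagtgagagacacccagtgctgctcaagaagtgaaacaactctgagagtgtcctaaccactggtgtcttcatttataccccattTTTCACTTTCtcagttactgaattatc
In Ifi203 the motif began 35 bases before the start site, in Mndal 36, in Ifi211 37 and in Ifi207 41. Ifi205, the tested member that did not pass, had the motif too, but 134 bases before its annotated start. It had a further match on the opposite strand 23 bases after that start. The Ifi203 and Mndal windows shared an unbroken run of 139 bases. Ifi203 and Mndal each have another annotated start. The other Ifi203 window held 0 matches, and the other Mndal window held 1 on the opposite strand, 54 bases before the start.

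Stretches of 50 bases centred on the motif show that the genes fall into groups by their flanks. These stretches were chosen after the windows had been inspected, and only Ifi206 and Ifi208, discussed later, are not among the 8 members.
Ifi207, chr1:173741821-173741870, minus strand: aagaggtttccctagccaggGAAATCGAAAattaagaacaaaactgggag
Ifi213, chr1:173599316-173599365, minus strand: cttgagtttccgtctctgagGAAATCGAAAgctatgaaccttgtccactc
Ifi206, chr1:173491329-173491378, minus strand: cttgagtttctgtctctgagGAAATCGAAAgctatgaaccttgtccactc
Ifi208, chr1:173673587-173673636, plus strand: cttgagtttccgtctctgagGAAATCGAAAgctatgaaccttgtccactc
Over these 50 positions Mndal and Ifi203 had 50 bases in common. Ifi205 and Ifi211 had 46 in common, and Ifi205 and Ifi207 had 44. Ifi213 had 50 in common with Ifi208 and 49 with Ifi206, but 29 with Ifi203. Inside the motif Ifi205 and Ifi211 read GAAATTGAAA, and the other matches on the gene's strand read GAAATCGAAA. Motif presence did not separate members by level: Ifi213 carried it and had at most 7 counts per library, while Ifi203 carried the same 10 letters and was the most abundant.

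**Figure D1:**
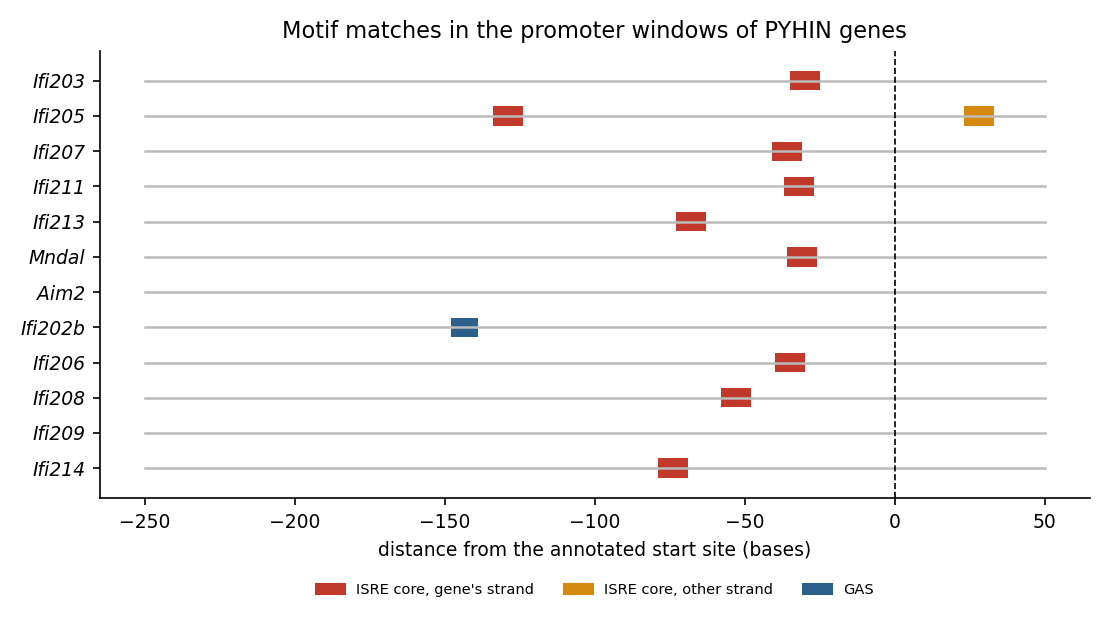
Position of motif matches (boxes) relative to the annotated start site (dashed line, 0), in bases, along the promoter window of each PYHIN gene with an entry (grey lines). Ifi203, Mndal, Ifi211 and Ifi207 have their ISRE core between 35 and 41 bases before the start, Ifi205 at 134, and only Ifi202b has a GAS (TTCNNNGAA).

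Expression is given as CPM, the count per 1000000 counts of a library after TMM scaling, with SD (AAV-iIL12, n = 3, and AAV-iLuc, n = 4). Fold changes are log2 values of AAV-iIL12 over AAV-iLuc ± SE from edgeR's quasi-likelihood test, and p-values were adjusted by Benjamini-Hochberg over 13990 genes. A gene rose or fell where its adjusted p was under 0.05. Of the 6 members with enough counts to be tested, 5 rose and 0 fell. Across all genes tested 23.5% rose and 23.7% fell. The median log2 fold change of the 6 members was 4.84, and that of all genes tested was -0.01. A rise of at least 16-fold was seen for 0.865% of genes tested and for 5 of the 6 members. By size of fold change, Ifi211 ranked 59, Ifi203 62, Ifi207 74, Ifi204 75, Mndal 88 and Ifi205 470 among the 13990 genes.

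Aim2, the inflammasome sensor, was near the limit of detection in both groups. It had 4, 2 and 2 counts in the AAV-iIL12 libraries and 2, 0, 0 and 2 in the AAV-iLuc libraries. The raw counts of the groups tie at 2, and in CPM the lowest AAV-iIL12 library (0.108) is just above the highest AAV-iLuc library (0.104). The ratio of summed counts, scaled to library totals, was 2.78 with an exact 95% binomial interval from 0.744 to 12.6, which covers counting error only. Without the filter on low counts the log2 fold change of Aim2 was 1.4 (adjusted p = 0.42, edgeR), which did not pass. By counting error alone, the interval lies below the 23.7-fold to 33.4-fold rises of the 5 other members. Smaller differences of Aim2 between the groups could not be resolved at this depth. A library with 0 counts allows up to 3 counts, or 0.154 to 0.183 CPM over the 7 libraries.

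Ifi204, the relative of human IFI16, was well detected with AAV-iIL12 and at low counts with AAV-iLuc. Its CPM was 23.1, 19.8 and 15.3 in the AAV-iIL12 libraries and 1.87, 0.164, 0.595 and 0.0515 in the AAV-iLuc libraries. All 3 AAV-iIL12 libraries lay above all 4 AAV-iLuc libraries, a separation in that direction found for 25.9% of genes tested. The group means were 19.4 ± 3.92 and 0.67 ± 0.833 CPM, and the AAV-iLuc values rest on 36, 3, 10 and 1 counts. Ifi204 rose by 4.83 ± 0.48 (adjusted p = 3.2e-05, edgeR), or 28.4-fold, and by 6.20 without AAV-iLuc replicate 1, where 22.8% of all genes rose.

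Ifi203, a nuclear member known for several splice forms, was the most abundant of the family. Its CPM was 166, 123 and 134 with AAV-iIL12 and 9.61, 3.78, 2.92 and 0.875 with AAV-iLuc. The group means were 141 ± 22.3 and 4.29 ± 3.75. The lowest AAV-iIL12 library was far above the highest AAV-iLuc library. Ifi203 rose by 5.02 ± 0.41 (adjusted p = 9.66e-06, edgeR), or 32.5-fold, and by 5.82 without AAV-iLuc replicate 1.

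Mndal, a nuclear member named after the human myeloid nuclear differentiation antigen, followed the same order of libraries. Its CPM was 63.5, 44.0 and 45.0 with AAV-iIL12 and 4.78, 2.03, 1.31 and 0.36 with AAV-iLuc. The groups did not overlap, and AAV-iLuc replicate 1 was again the highest of its group. The group means were 50.8 ± 11.0 and 2.12 ± 1.90. Mndal rose by 4.57 ± 0.41 (adjusted p = 1.71e-05, edgeR), or 23.7-fold, and by 5.38 without AAV-iLuc replicate 1. Of its 3591 exon bases, 118 (3.29%) overlap the gene Gm38050 on the same strand, and the other 7 members have 0 such bases.

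Ifi211 had a fold change close to that of Ifi203. Its CPM was 30.3, 16.9 and 18.7 with AAV-iIL12 and 1.56, 0.493, 0.297 and 0.206 with AAV-iLuc. The means were 22.0 ± 7.26 and 0.639 ± 0.625 CPM. Here too the groups were fully apart, with AAV-iIL12 replicate 1 above the other libraries of its group. Ifi211 rose by 5.06 ± 0.41 (adjusted p = 9.62e-06, edgeR), or 33.4-fold, and by 6.03 without AAV-iLuc replicate 1.

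Ifi207, whose CPM was 21.2, 12.4 and 11.8 with AAV-iIL12, had 1.40, 0.219, 0.0595 and 0.309 with AAV-iLuc. The means were 15.1 ± 5.26 and 0.497 ± 0.612 CPM. The groups did not overlap, and the AAV-iLuc values rest on 27, 4, 1 and 6 counts. Ifi207 rose by 4.86 ± 0.48 (adjusted p = 3.21e-05, edgeR), or 29.0-fold, and by 6.18 without AAV-iLuc replicate 1.

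Ifi205, a member studied as a regulator of inflammasome gene expression and of fat cell differentiation, did not follow the others. It had 31, 15 and 22 counts with AAV-iIL12, or 1.89, 0.814 and 1.21 CPM. With AAV-iLuc it had 7, 0, 20 and 4 counts, or 0.364, 0, 1.19 and 0.206 CPM. AAV-iLuc replicate 3 lay inside the AAV-iIL12 range, and the groups overlap. The log2 fold change was 1.59 ± 0.71 (adjusted p = 0.0919, edgeR). Without AAV-iLuc replicate 3 it was 2.7 (adjusted p = 0.00975, edgeR), and 21.8% of all genes rose in that fit. The call depends on that library, but not on it alone. With all libraries Ifi205 passed with limma-voom (2.43, adjusted p = 0.034) and, in edgeR, without the filter on low counts (adjusted p = 0.0171). It also passed with leukocyte markers as a covariate (2.46, adjusted p = 0.03, edgeR). The shares of all genes that rose under these 3 settings were 23.8%, 12.7% and 21.1%.

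Ifi213 had 1, 2 and 7 counts with AAV-iIL12 and 4, 1, 2 and 0 with AAV-iLuc. The groups overlap, and the summed ratio was 1.98 with an exact 95% binomial interval from 0.682 to 6.14. Without the filter on low counts the log2 fold change of Ifi213 was 0.93 (adjusted p = 0.531, edgeR), which did not pass. This interval, too, lies below the rises of the members that passed, by counting error alone. Smaller differences of Ifi213 could not be resolved at this depth.

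**Figure D2:**
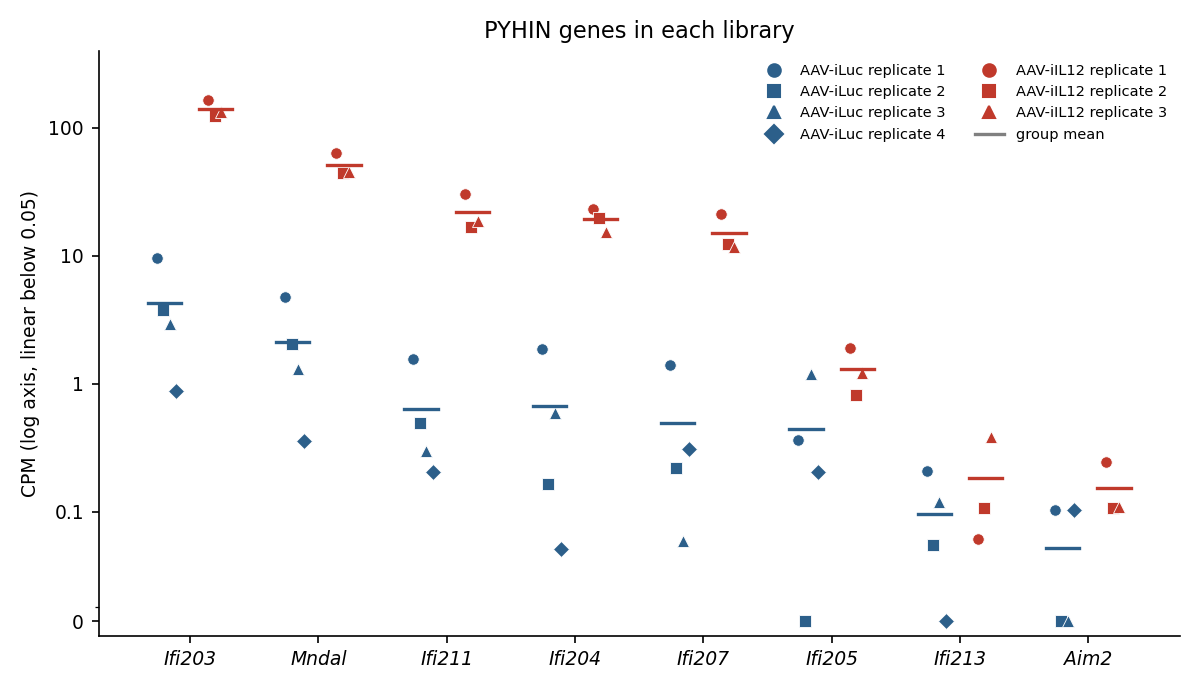
CPM of the 8 members in each library on a log axis that is linear below 0.05, with AAV-iLuc in blue, AAV-iIL12 in red, a marker shape for each replicate number and a bar for each group mean. Ifi203, Mndal, Ifi211, Ifi204 and Ifi207 separate the groups fully, Ifi205 overlaps at 1.19 CPM in AAV-iLuc replicate 3, and Ifi213 and Aim2 stay below 0.4 CPM.

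AAV-iLuc replicate 1 stood above the rest of its group for the 5 members that rose. Its CPM relative to the mean of the other 3 AAV-iLuc libraries was 3.81 for Ifi203, 3.88 for Mndal, 4.69 for Ifi211, 6.92 for Ifi204 and 7.16 for Ifi207, but 0.781 for Ifi205. Even so, the 8 members summed to 19.9 CPM there, against 217 to 306 CPM in the AAV-iIL12 libraries. The sums of the other AAV-iLuc libraries were 6.74, 6.48 and 2.11 CPM. The group means of the sum were 250 ± 49.0 and 8.81 ± 7.69 CPM.

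**Figure D3:**
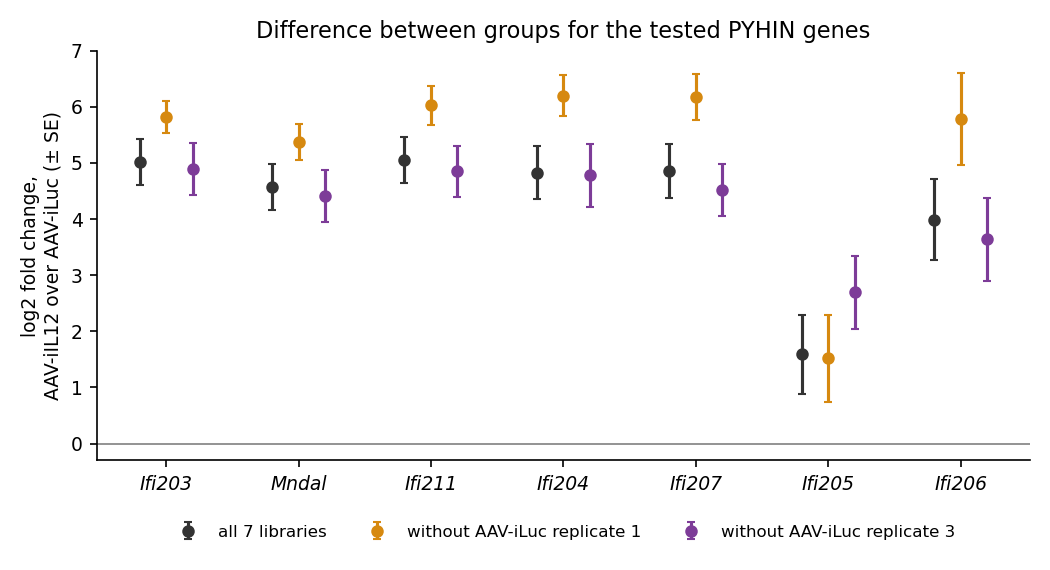
Log2 fold change of AAV-iIL12 over AAV-iLuc with its SE as bars, for the 6 tested members and the related gene Ifi206, from all 7 libraries (black), without AAV-iLuc replicate 1 (orange) and without AAV-iLuc replicate 3 (purple). Leaving out replicate 1 moves Ifi204 from 4.83 to 6.20, while leaving out replicate 3 moves Ifi205 from 1.59 to 2.7.

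To order the members by level, CPM was divided by the summed exon length in the files. On this per-kilobase scale the AAV-iIL12 means were 21.0 ± 3.33 for Ifi203, 14.2 ± 3.06 for Mndal and 12.3 ± 4.07 for Ifi211. They were 5.45 ± 1.10 for Ifi204, 4.42 ± 1.54 for Ifi207, 0.312 ± 0.13 for Ifi205, 0.044 ± 0.0221 for Aim2 and 0.027 ± 0.0255 for Ifi213. The ranges of Mndal and Ifi211 overlap, as do those of Ifi204 and Ifi207 and those of Aim2 and Ifi213, so the spread across libraries exceeds the distance within these pairs. Within each of the 3 AAV-iIL12 libraries, however, Mndal lay above Ifi211 and Ifi204 above Ifi207, while Aim2 lay above Ifi213 in 2 of 3. Shared sequence, described below, may lower Ifi211 (72.9% of 50-base windows shared) more than Mndal (27.2%). Agreement between libraries does not remove this, so the order of Mndal and Ifi211 remains uncertain. The distances within these pairs, and the shares below, also depend on the length used. Summed exons were 3591 bases for Mndal and 3561 for Ifi204, but the transcripts used for the shared windows had 2026 and 2296. For Ifi211 (1785) and Ifi207 (3422) the lengths were equal. With AAV-iLuc the means were 0.64 for Ifi203, 0.59 for Mndal and 0.358 for Ifi211, and 0.188 or less for the others. In that group the library ranges of all neighbours overlap.

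The make-up of the family signal was compared as each member's share of the summed counts per length. Ifi203 made up 36.7% ± 2.53 with AAV-iIL12 and 30.5% ± 5.07 with AAV-iLuc. For Mndal the shares were 24.6% ± 0.205 and 27.3% ± 7.55, and for Ifi211 21.0% ± 2.15 and 17.5% ± 4.32. Ifi205 had 0.527% ± 0.119 with AAV-iIL12 but 1.84%, 0%, 19.6% and 9.31% in the AAV-iLuc libraries. In 2 of the AAV-iLuc libraries Ifi205 was thus a visible part of a small sum. In a two-sided exact permutation test, with 35 ways to place the group labels, 0 of the 8 shares differed. The lowest p was 0.143 (adjusted p = 0.571 over the 8 shares), and the smallest p this design allows is 0.0286. After adjustment a single share that fully separated the groups could reach only 0.229, and at least 5 shares at the smallest p would be needed to pass, so the test cannot show that 1 or a few shares differ. The sums in AAV-iLuc replicates 2 to 4 rest on few counts, which limits this comparison.

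**Figure D4:**
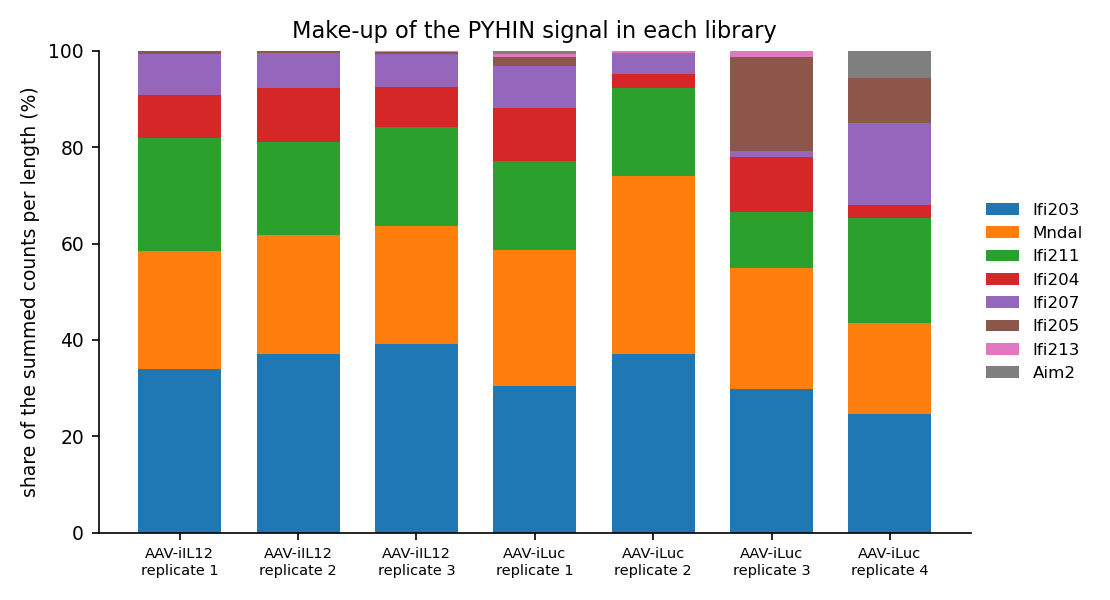
Stacked bars give each member's share, in percent, of the summed counts per exon length of the 8 members in each library. The 3 AAV-iIL12 bars are close to each other, with Ifi203 between 34.0% and 39.1%, and the AAV-iLuc bars vary, with Ifi205 at 19.6% in replicate 3 and Aim2 at 5.55% in replicate 4.

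Members of the family share stretches of sequence, and reads that map to several genes were not counted under the stated settings. In the GENCODE vM21 transcripts, 72.9% of the 50-base windows of Ifi211 were also found in another gene, mostly Ifi205 and Ifi204. The share was 49.6% for Ifi205, nearly all of it with Ifi211, and 30.2% for Ifi204, 27.9% for Ifi213 and 27.2% for Mndal. It was 10.7% for Ifi203, 7.17% for Ifi207 and 0.789% for Aim2. With 100-base windows the shares were 56.9% for Ifi211, 41.5% for Ifi205, 16.8% for Ifi204 and at most 7.63% for the others. Levels of Ifi211, Ifi205 and Ifi204 are therefore uncertain and may be too low. Ifi203 and Ifi207, with little shared sequence, rose 32.5-fold and 29.0-fold.

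Outside the 8 members, 6 more PYHIN genes were found by symbol. Ifi206 was tested and rose by 3.99 ± 0.72 (adjusted p = 0.00128, edgeR), from 5, 1, 0 and 0 counts with AAV-iLuc to 34, 26 and 13 with AAV-iIL12. Without AAV-iLuc replicate 1 it rose by 5.79. Ifi208 had 15 counts in all with AAV-iIL12 and 1 with AAV-iLuc, a ratio of 20.8 with an exact 95% binomial interval from 3.21 to 877. The pseudogene Ifi203-ps had 30 and 3 counts, a ratio of 13.9 (4.32 to 71.1). Ifi209 had 27 and 7, a ratio of 5.36 (2.28 to 14.6), with all 7 AAV-iLuc counts in replicate 1. Without the filter on low counts, where 12.7% of genes rose, the adjusted p was 0.00662 for Ifi208, 0.000559 for Ifi203-ps and 0.0214 for Ifi209 (edgeR). Ifi202b, known as an inhibitor of Aim2 whose level differs between mouse strains, had 0 counts in every library, and so did Ifi214. Promoter windows were found for 5 of these genes, and the ISRE core was present for Ifi206, Ifi208 and Ifi214. Ifi214 thus had the motif 79 bases before its start and no counts.

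Along chromosome 1 the rises were compared with the genes around the cluster. The 8 members span chr1:173178445-173859376 on GRCm39, 681 kb, with Aim2 at one end and Ifi205 at the other. Ifi207 (173550993-173569313), Ifi204 (173574859-173594509), Mndal (173676692-173708447), Ifi211 (173723911-173740612) and Ifi203 (173747973-173770238) follow each other, all on the minus strand. Ifi205 (173839564-173859376) and Ifi213 (173393849-173426840) are also on the minus strand, and Aim2 (173178445-173293606) is on the plus strand. Inside the span lie 9 genes that are not PYHIN genes, of which 0 were tested. From 1 Mb before Aim2 to the end of Ifi205 there were 48 other genes, these 9 included, of which 34 had 0 counts in all libraries and 3 were tested. Slamf8, a surface receptor of the SLAM family, rose by 4.86 ± 0.60 (adjusted p = 0.000128, edgeR), from 0.0793 to 2.57 CPM, and by 5.88 without AAV-iLuc replicate 1. Pigm, an enzyme of GPI anchor synthesis, did not pass (-0.10, adjusted p = 0.194), nor did the actin-binding gene Tagln2 (-0.24, adjusted p = 0.594).

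**Figure D5:**
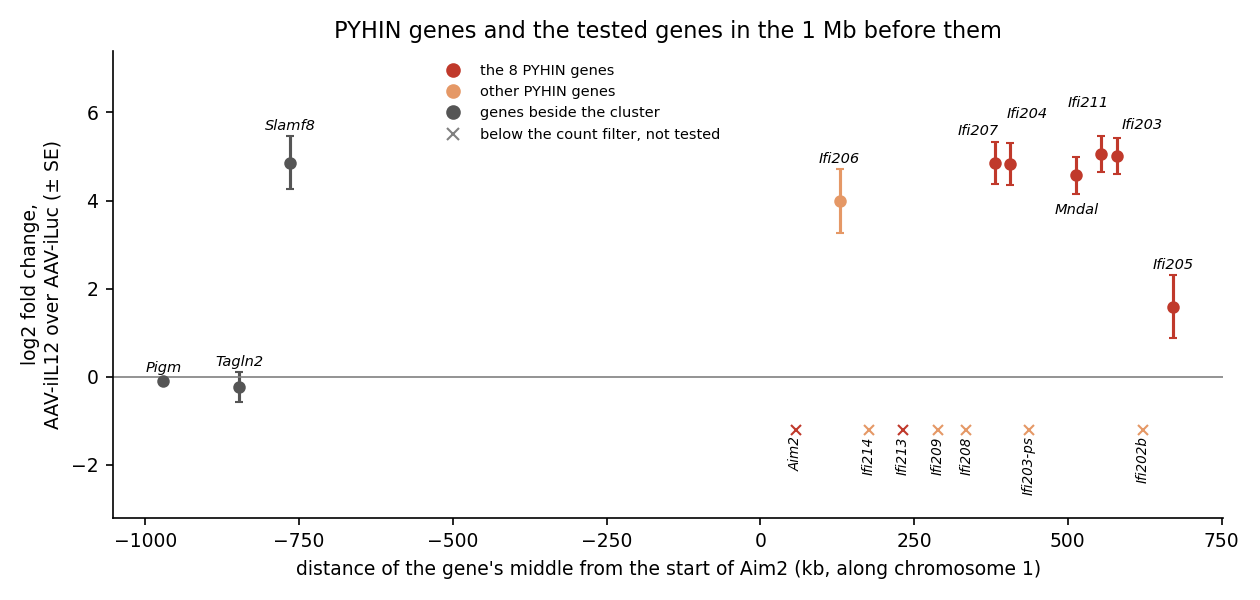
Log2 fold change ± SE of AAV-iIL12 over AAV-iLuc against the distance of each gene's middle from the start of Aim2, in kb, for PYHIN genes (red and orange) and tested genes in the 1 Mb before Aim2 (grey). Crosses below the zero line mark PYHIN genes under the count filter, which were not tested. Ifi207 to Ifi203 lie between 4.57 and 5.06, and Pigm and Tagln2 lie near 0.

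PYHIN genes are also expressed by macrophages and lymphocytes, so markers of other cells were read beside these rises. In bulk libraries fewer cells of a type and less RNA per cell cannot be told apart. The 8 leukocyte markers summed to 42.1 to 44.5 CPM with AAV-iIL12 and 28.3 to 50.6 CPM with AAV-iLuc, and 0 of the 6 tested rose. Without AAV-iLuc replicate 1, 2 of 4 tested rose, Ptprc, which encodes CD45 (3.09, adjusted p = 0.00137, edgeR), and Laptm5 (2.29, adjusted p = 0.0116). Ptprc also passed with limma-voom on all libraries (adjusted p = 0.0343). Most of that sum was Lcp1, an actin-binding gene at 26.8 to 39.4 CPM in the 7 libraries. Without Lcp1 the markers summed to 11.9, 6.94 and 5.05 CPM with AAV-iIL12 and to 11.2, 1.53, 1.43 and 3.14 CPM with AAV-iLuc. AAV-iLuc replicate 1 was within the AAV-iIL12 range in these markers, and its PYHIN sum was 19.9 CPM. In units of that marker sum the PYHIN sum was 25.7, 31.2 and 44.9 with AAV-iIL12 and 1.77, 4.39, 4.54 and 0.672 with AAV-iLuc. With the leukocyte list without Lcp1 as a covariate, Ifi203 rose by 4.52, Ifi211 by 4.40, Ifi204 by 4.19, Ifi207 by 4.10 and Mndal by 4.02, the largest adjusted p being 8.05e-05 (edgeR), and 17.6% of all genes rose. Ifi205 did not pass there (1.71, adjusted p = 0.19). This covariate was chosen after the marker values had been seen, and it rests on sums as low as 1.43 CPM. The part of leukocytes in the PYHIN rises was not tested beyond these values.

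Macrophage and monocyte markers, 14 genes led by Cd68, summed to 27.3 to 43.4 CPM with AAV-iIL12 and 16.4 to 35.8 CPM with AAV-iLuc. The highest AAV-iLuc sum without replicate 1 was 20.2 CPM, below every AAV-iIL12 library. Of 10 tested, C1qb alone rose (2.48, adjusted p = 0.0208, edgeR), and it did not pass without AAV-iIL12 replicate 1 (1.75, adjusted p = 0.103) or with DESeq2 (adjusted p = 0.0888). Without AAV-iLuc replicate 1, 5 of 8 tested rose, namely C1qb by 3.73, C1qc by 2.61, Lyz2 by 2.47, Fcgr3 by 2.05 and Cd14 by 1.32. Cd68, Csf1r and Mrc1 did not pass there (adjusted p = 0.0721, 0.0522 and 0.678, edgeR), and 22.8% of all genes rose in that fit. The library left out had the highest macrophage sum of its group, 35.8 CPM, so leaving it out in itself widens these differences. The 9 T cell markers summed to 5.65 to 6.57 CPM with AAV-iIL12 and 1.48 to 2.91 CPM with AAV-iLuc. Lck alone was tested and rose. Lck also made up most of these sums, at 5.1 to 5.6 CPM and 1.48 to 2.63 CPM. Cd3e, Cd3g, Cd2, Cd5 and Cd8a were at 0 in all AAV-iLuc libraries, and Cd4 in all AAV-iIL12 libraries. The 7 NK cell markers summed to 0.933 to 3.65 CPM with AAV-iIL12 and 0.0515 to 1.56 CPM with AAV-iLuc. Of these, Gzmb rose by 4.05 (adjusted p = 2.43e-05, edgeR) without the filter on low counts, where 12.7% of genes rose. In that fit the T cell markers Cd8a and Cd2 rose by 5.49 (adjusted p = 0.00112) and 4.83 (adjusted p = 0.0105). These rises rest on at most 32 counts per library. The other markers of both lists below the filter did not pass there. The 5 neutrophil markers summed to 0.519 CPM at most, with Cxcr2 at 0 throughout. The 8 endothelial markers summed to 22.1 to 34.3 CPM with AAV-iIL12 and 34.2 to 41.1 CPM with AAV-iLuc. Vwf and Egfl7 were counted in every library, Egfl7 fell by 0.95 on the log2 scale (adjusted p = 6.83e-05, edgeR), and Cdh5, Tie1 and Emcn were at 0 in every library. The 8 melanoma markers, such as Pmel and Tyrp1, summed to 29000 to 29900 CPM with AAV-iIL12 and 23800 to 27100 CPM with AAV-iLuc. The part of macrophages, T cells and NK cells in the PYHIN rises was not tested beyond these values.

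Genes of DNA sensing, inflammasomes and pyroptosis, interferon ligands, interferon signalling and growth control were read from 5 lists. Not all of them are partners of PYHIN proteins. Of 56 list genes tested, 33 rose and 7 fell, against the 23.5% and 23.7% of all genes given above. The inflammasome and pyroptosis list also holds sensors other than Aim2. Naip2 and Naip5 rose, and Nlrp3 did not pass (0.69, adjusted p = 0.436, edgeR). The sensors Nlrc4, Nlrp1a, Nlrp1b, Nlrp6 and Mefv had too few counts for the main test. In this list 9 of 13 tested genes were higher and 0 lower, with a median log2 fold change of 1.46. Pycard, the adaptor of Aim2, was at 34.1, 37.0 and 33.0 CPM with AAV-iIL12 and 15.8, 12.8, 15.2 and 15.0 CPM with AAV-iLuc. It rose by 1.24 ± 0.09 (adjusted p = 4.81e-06, edgeR) although its partner Aim2 was barely counted. Gsdmd, the pore-forming gasdermin, rose by 4.40 ± 0.27 (adjusted p = 2.55e-06), and Casp12, an inflammatory caspase, by 4.95 ± 0.32 (adjusted p = 3.14e-06), or 5.63 without AAV-iLuc replicate 1. Ninj1, which mediates membrane rupture, had the highest mean CPM of the list over the 7 libraries and did not pass (-0.06, adjusted p = 0.405). With scaling by library size only it fell (-0.15, adjusted p = 0.0391).

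In the DNA sensing list 7 of 16 tested genes rose and 5 fell, with a median of -0.08. Tmem173, which encodes STING, was at 78.6, 79.7 and 80.3 CPM with AAV-iIL12 and 43.9, 38.8, 44.2 and 36.3 CPM with AAV-iLuc, and rose by 0.96 ± 0.07 (adjusted p = 6.9e-06, edgeR). Samhd1, a nucleotide-degrading restriction factor, rose by 2.72 ± 0.12 (adjusted p = 9.54e-07), and the interferon regulatory factor Irf7 by 4.02 ± 0.31 (adjusted p = 7.3e-06). Lrrfip1, a nucleic acid binding protein, was the most abundant and did not pass (-0.08, adjusted p = 0.441). The genes that fell were Cgas, Rnaseh2a, Rnaseh2b, Rnaseh2c and Dhx9, each by less than 1 on the log2 scale. They were named after their values had been seen. Cgas did not pass without AAV-iIL12 replicate 1 (adjusted p = 0.0681) or AAV-iLuc replicate 1 (0.0514) or 3 (0.0585). With the covariate described above, neither Cgas (0.0734) nor Rnaseh2a (0.0694) passed. Genes of the list thus moved in both directions, whereas 0 of the 6 tested PYHIN members fell.

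Upstream, 0 of the 5 interferon ligands passed the filter on low counts with all 7 libraries. Without that filter, where 12.7% of genes rose, Ifng rose by 4.91 (adjusted p = 5.18e-05, edgeR). Ifng, interferon gamma, was at 0.852, 0.814 and 0.165 CPM with AAV-iIL12 and 0.0519, 0, 0 and 0 CPM with AAV-iLuc, while Ifnb1, Ifna4, Ifnl2 and Ifnl3 were at 0 in every library. Of 18 interferon signalling genes 14 rose and 1, the receptor chain Ifngr2, fell, with a median of 1.28. Irf1, a transcription factor that binds the ISRE, had the highest mean CPM of that list over the 7 libraries, at 889, 919 and 891 CPM against 121, 24.0, 24.5 and 16.8 CPM. Its AAV-iLuc replicate 1 was far above the other 3. The PYHIN genes that rose were also highest in that library of the group, though less far apart from the rest by Dixon's criterion, given below. Whether Irf1 acts on them was not tested. Irf1 rose by 4.27 ± 0.61 (adjusted p = 0.000312, edgeR), and by 5.38 without AAV-iLuc replicate 1. The inhibitor Socs1 rose by 4.03 ± 0.25 (adjusted p = 2.5e-06), the kinase Jak2 by 1.28 ± 0.07 (adjusted p = 1.19e-06) and the phosphatase Ptpn6 by 1.48 ± 0.11 (adjusted p = 5.31e-06).

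Partners through which PYHIN proteins have been linked to growth control formed the last list. Of 9 tested, 3 rose and 1 fell, with a median of -0.04. Rb1, the retinoblastoma protein bound by the Ifi204 protein, rose by 0.71 ± 0.07 (adjusted p = 4.13e-05, edgeR), and the Id protein gene Id2 by 0.62 ± 0.07 (adjusted p = 0.000107). The cell cycle factor E2f1 was at 13.6, 22.7 and 21.6 CPM with AAV-iIL12 and 45.5, 46.1, 49.7 and 51.8 CPM with AAV-iLuc, and fell by 1.32 on the log2 scale (adjusted p = 6.72e-05). Cdkn1a, the p21 inhibitor, was the most abundant and did not pass (-0.08, adjusted p = 0.577).

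The genes nearest in pattern to the PYHIN family were found over the 7 libraries. For each of 12077 genes, the root mean square distance between its centred log2 CPM and the mean profile of the 6 tested members was taken. The nearest were Sp140 (0.218), a nuclear body gene, Clec2d (0.269), a C-type lectin, Phf11d (0.295), a PHD finger gene, 9930111J21Rik2 (0.299) and Irf1 (0.314). Sp140 was at 41.8, 24.7 and 25.7 CPM with AAV-iIL12 and 2.23, 0.602, 0.952 and 0.309 CPM with AAV-iLuc, so AAV-iIL12 replicate 1 and AAV-iLuc replicate 1 are the highest of their groups. On the same scale the members themselves lay 0.382 (Ifi211), 0.449 (Mndal), 0.522 (Ifi204), 0.542 (Ifi203), 0.697 (Ifi207) and 1.71 (Ifi205) from their mean. The 5 nearest genes lay closer to the mean than any single member. They were picked as the smallest of 12077 distances, whereas the members were fixed, and the mean includes Ifi205. This order therefore does not show that they follow the family better than its members do. These distances describe 7 libraries of which 3 are high, and they carry no test.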

How the data were processed

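RNA of sorted CD45- CD31- B16 tumour cells was sequenced as stranded poly(A) libraries, per the labels' protocols. The deposited values are raw fragment counts per gene, made with featureCounts 1.6.0, reverse-stranded and paired, over GENCODE vM32 exons, per the file headers. The submitters' processing notes name STAR 2.7.9a, FastQC 0.11.8, the build GRCm39, limma and edgeR. Total counts were 16356653 to 19080587 per library. Identifiers were matched to GENCODE vM21 symbols (52029 of 56953, holding 99.4% of counts).

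The comparison used edgeR 4.0.16 under R 4.3.3 (quasi-likelihood test, TMM, filterByExpr, Benjamini-Hochberg at 0.05) on the counts. Across all genes 3292 rose and 3316 fell, and 2506 rose and 4460 fell with scaling by library size only, or 2650 and 4225 with upper quartile scaling. The code was tested on simulated data. Alternatives were median-of-ratios, library size and upper quartile scaling, 2 other filters, DESeq2 1.42.0, limma-voom 3.58.1, stricter thresholds, a replicate block, leukocyte covariates and each library left out. No 2 libraries of a group agreed within sampling noise.

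Members and lists were chosen with earlier results of these data known. Named were all members, other PYHIN genes, from each list the 3 called genes with the smallest p and the most abundant gene, and tested protein-coding genes within 1 Mb. Of that window, the side beyond Ifi205 is not reported here. The 5 genes nearest in pattern and the promoters of 4 members with most matches, then highest CPM, were also named. Other names were chosen after their values were seen. The marker lists for dendritic cells, B cells and fibroblasts were also read. They summed to 7.7 to 10.7, 0.705 to 0.933 and 57.6 to 156 CPM with AAV-iIL12. With AAV-iLuc the sums were 6.08 to 8.8, 0.595 to 1.08 and 83.0 to 288 CPM. Most of the dendritic cell sum was Zbtb46, at 7.38 to 10.2 CPM with AAV-iIL12 and 6.02 to 8.55 CPM with AAV-iLuc.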

Additional observations from a re-analysis of the deposited data

Results flagged for a closer look

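Within the 4 AAV-iLuc libraries, 41 quantities were examined for a library far from the other 3, and 7 were found by Dixon's criterion. Chance finds about 1 in 20 of quantities that vary continuously. For 4 of the 7 the other 3 libraries were at 0, where any count meets the criterion, so that rate does not apply to them. In 6 of the 7 the library was AAV-iLuc replicate 1. Irf1 was at 121 CPM there and at 16.8 to 24.5 CPM in the other 3, and Samhd1 at 64.0 CPM against 44.8 to 46.8 CPM. Ifi209 was at 0.364 CPM (7 counts), Ifi203-ps at 0.156 CPM (3 counts), and Ifi208 and Ifng at 0.0519 CPM each (1 count), all with 0 in the other 3. The remaining one was the share of Aim2 in the counts per length, 5.55% in AAV-iLuc replicate 4 from 2 counts, against 0% to 0.629% in the others. The 5 members that rose were highest in AAV-iLuc replicate 1 but did not meet the criterion.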

How the results depend on the processing

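Over 19 alternatives 5 or 6 members rose and 0 fell. With the stricter thresholds set aside, 12.7% to 25.6% of all genes tested rose in these fits. The lowest log2 fold change was 4.52 for Ifi203, 4.40 for Ifi211, 4.19 for Ifi204, 4.10 for Ifi207 and 4.02 for Mndal. Leaving out 1 library at a time gave 5 to 6 members that rose, against 20.3% to 22.8% of all genes tested, and Ifi205 between 1.18 and 2.7. Of the pathway lists 7 genes fell, but 12 with scaling by library size only, 11 with upper quartile scaling and 1 with a log2 change of at least 1. Beside the cluster 0 genes fell, but 1 did with either of those scalings, namely Pigm (-0.19 and -0.18). Replicate numbers do not pair the libraries, with correlations of 0.09, 0.03 and -0.05 between equal numbers. With the replicate block 5 members rose, and 2832 genes rose in place of 3292. Shares of members could not pass a test with 1 library left out, since the smallest p is then 0.0667 or 0.1. Depth limits Aim2, Ifi213, Ifi205 and the AAV-iLuc values of the others, down to 1 count.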
